A study of Homo sapiens with 2 samples.

Results

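Laminins and other non-collagen proteins of the extracellular matrix were compared between HCC4006ER and HCC4006 cells as a list of 44 named genes, of which 43 had a probe set with 1 gene symbol among the 19775 genes of the arrays. LAMA3 was not analysed here. HCC4006 is a human NSCLC cell line with an EGFR exon 19 deletion that is sensitive to erlotinib, an inhibitor of the EGFR tyrosine kinase. HCC4006ER cells carry the same deletion, are erlotinib resistant and are labelled with an EMT phenotype. They had been derived as a bulk population by exposing HCC4006 cells to erlotinib for 3 months, beginning at 3 nM and reaching 4 μM. Both lines were grown for 48 hours in medium with 10% FBS, and the study's methods name no further treatment for this culture. Equal amounts of RNA from 3 preparations per line were pooled on 1 HG-U133 array of Affymetrix. The names HCC4006ER and HCC4006 are used for the arrays that carry those labels.

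With 1 array of mixed RNA per cell line there was no replicate, no SD and no test, and every difference is given as a value. The probe set that was brightest on average over both arrays (log2 scale) stood for its gene. A signal was taken as above background when it exceeded 95 percent of the 127 probe sets of olfactory and bitter taste receptors. Most of these genes are used chiefly in sensory cells, but some are known in airway cells, so the level is a working one. These levels were 91.6 on the HCC4006ER array and 96.2 on the HCC4006 array. A dim signal was raised to that level before the fold was taken, and such a fold is given as at least that size. As a measure of disagreement, log2 folds of different probe sets of 1 gene varied with a pooled SD of 0.27 over 5264 genes. It was taken from probe sets above background on both arrays, and it leaves out dim probe sets and variation between arrays and cultures. Less RNA per cell and fewer cells with that RNA cannot be told apart in such samples. Of 10 epithelial and carcinoma markers, 9 were above background on both arrays and within 1.5-fold. NKX2-1 was under background on both arrays, at 7.98 in HCC4006ER and 65.4 in HCC4006, and has no fold. For the EMT label, VIM had a log2 fold of 0.61 and CDH2 of 1.03, while CDH1 had 0.08 and ZEB1 was under background on both arrays at 53.1 in HCC4006ER and 42.5 in HCC4006. A lower CDH1 and a raised ZEB1, which usually go with EMT, were therefore not seen, and these values go against the EMT label in part. The study reported from its microarray a strongly raised ZEB1 and a loss of CDH1 in HCC4006ER cells, which the deposited values do not show. Its RT-PCR and protein blots, which are separate from these arrays, also gave raised ZEB1 and lower E-cadherin, the product of CDH1. Fibronectin protein was reported as raised as well. VIM, also reported as increased, was higher here. Whether each array holds the cells that its label names is therefore in doubt and was not checked further. Each fold compares the array labelled HCC4006ER with the array labelled HCC4006.

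Laminins are cross-shaped trimers of an alpha, a beta and a gamma chain that polymerize under epithelia into the basement membrane, where nidogens, perlecan and agrin tie them to other components and to cells. Fibronectin and the fibrillins are assembled by cells into fibres of the interstitial matrix, and fibulins, microfibril-associated proteins and emilins join the fibrillin and elastic fibres. Matricellular proteins such as SPARC, tenascin C and the thrombospondins are secreted into the matrix and alter how cells attach to it and how growth factors act there. In epithelial cells that take on mesenchymal features, fibronectin is a widely used marker.

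The list was split between genes that were higher, genes that were lower and genes that lay within 1.5-fold. Of the 43 genes, 30 were above background on at least 1 array and 27 on both. Past 1.5-fold, 7 of the 30 were higher in HCC4006ER (23.3%), against 7.99% of all 11896 genes above background, and 8 were lower (26.7%), against 11.2% of all genes. In either direction 15 of the 30 lay past 1.5-fold, against 19.1% of all genes, and the median log2 fold was -0.059 for the list and -0.039 for all genes. Past 2-fold, 4 of the 30 were higher and 2 lower, against 2.38% and 3.56% of all genes. When the array medians were made equal, which moved every log2 fold up by 0.14, 8 were higher and 5 lower, so that the share of higher genes among those past 1.5-fold was 61.5% in place of 46.7%. For all genes the shares at that scaling were 12.4% higher and 7.4% lower.

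**Figure D1:**
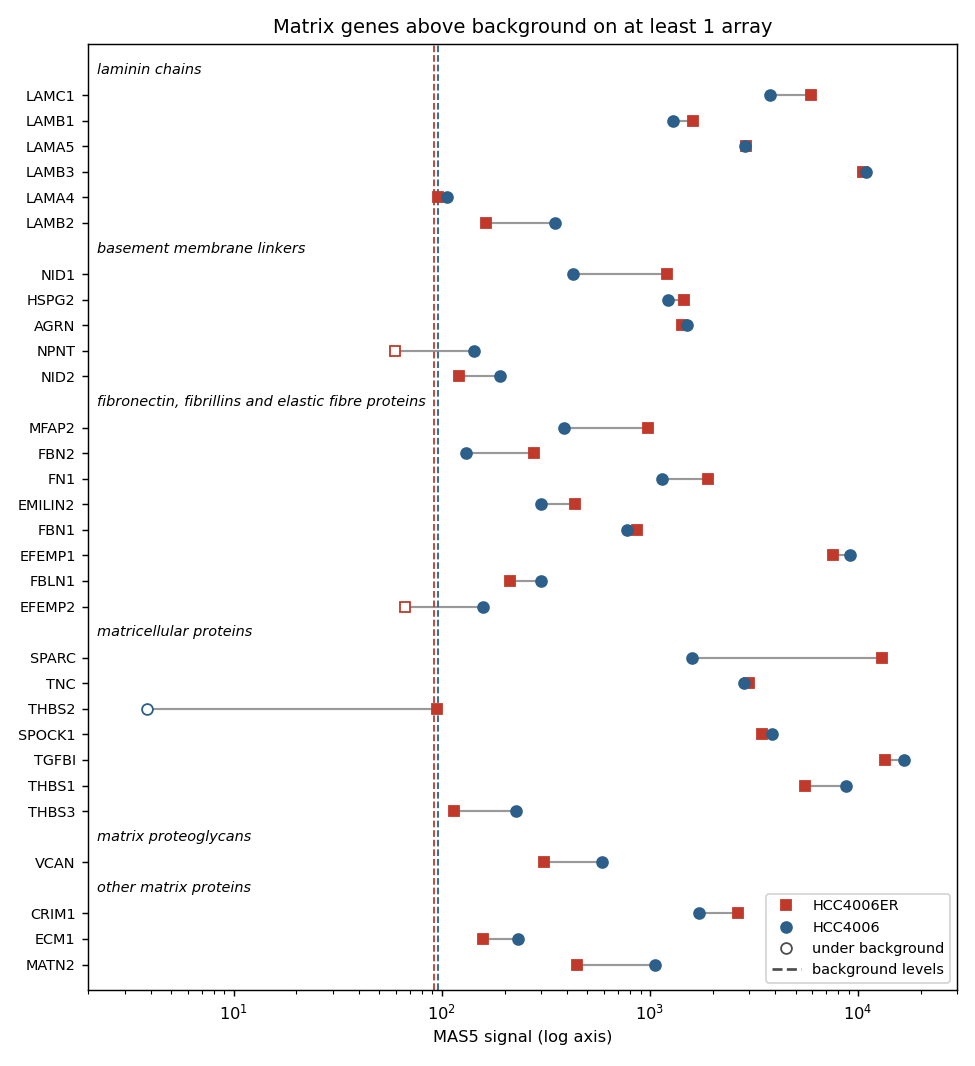
MAS5 signal on a log axis for the 30 matrix genes above background on at least 1 array, grouped by role, with red squares for HCC4006ER and blue circles for HCC4006. Open symbols lie under the background levels of 91.6 for HCC4006ER and 96.2 for HCC4006 (dashed lines). SPARC shows the widest gap between filled symbols, at 13026 in HCC4006ER and 1590 in HCC4006, and the symbols of LAMA5, LAMB3, AGRN and TNC nearly coincide.

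SPARC, a collagen-binding matricellular glycoprotein also called osteonectin, was the gene of the list with the largest difference. Its signal was 13026 in HCC4006ER and 1590 in HCC4006, which is 8.19-fold higher and the 9th highest fold of the 11896 genes above background. Its other probe set read 1472 in HCC4006ER and 60.7 in HCC4006, under background, and was at least 15.3-fold higher. NID1, which encodes nidogen-1, a linker between laminin and type IV collagen, read 1209 in HCC4006ER and 425 in HCC4006, 2.84-fold higher. Its second probe set above background gave the same fold, at 343 in HCC4006ER and 121 in HCC4006. MFAP2, a small glycoprotein of fibrillin microfibrils, read 975 in HCC4006ER and 387 in HCC4006, 2.52-fold higher in its only probe set. FBN2, the fibrillin most used in embryonic microfibrils, read 278 in HCC4006ER and 131 in HCC4006, 2.12-fold higher, and its other 2 probe sets were under background on both arrays. In the opposite direction, MATN2, a matrilin that bridges other matrix components, read 446 in HCC4006ER and 1062 in HCC4006, 2.38-fold lower. LAMB2, the laminin beta-2 chain, read 162 in HCC4006ER and 348 in HCC4006, 2.14-fold lower in its only probe set.

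These 6 genes had folds past 2 with both signals above background, and the 250 bases before the RefSeq start of 5 of them are shown to set the control regions of the most divergent matrix genes side by side (GRCh38.p14, all on the minus strand and written 5′ to 3′). They lie at chr5:151686916-151687165, chr1:236065091-236065340, chr1:16981584-16981833, chr5:128538246-128538495 and chr3:49133051-49133300. The region of MATN2 is not shown. Capitals mark matches on either strand to 6 short motifs.
SPARC: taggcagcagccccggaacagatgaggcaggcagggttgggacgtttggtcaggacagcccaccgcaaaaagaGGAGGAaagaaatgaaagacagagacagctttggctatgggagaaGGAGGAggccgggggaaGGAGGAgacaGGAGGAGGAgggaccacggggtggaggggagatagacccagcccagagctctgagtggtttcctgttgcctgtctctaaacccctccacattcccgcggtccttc
NID1: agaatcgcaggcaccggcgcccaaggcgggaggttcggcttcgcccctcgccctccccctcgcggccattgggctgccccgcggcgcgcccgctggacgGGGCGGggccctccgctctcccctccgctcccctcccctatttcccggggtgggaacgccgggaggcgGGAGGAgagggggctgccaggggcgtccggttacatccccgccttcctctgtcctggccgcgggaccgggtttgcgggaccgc
MFAP2: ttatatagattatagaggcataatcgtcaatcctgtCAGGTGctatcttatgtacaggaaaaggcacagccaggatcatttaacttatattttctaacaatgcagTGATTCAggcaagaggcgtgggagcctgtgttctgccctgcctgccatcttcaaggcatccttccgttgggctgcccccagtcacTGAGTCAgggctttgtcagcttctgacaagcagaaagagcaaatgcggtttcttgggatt
FBN2: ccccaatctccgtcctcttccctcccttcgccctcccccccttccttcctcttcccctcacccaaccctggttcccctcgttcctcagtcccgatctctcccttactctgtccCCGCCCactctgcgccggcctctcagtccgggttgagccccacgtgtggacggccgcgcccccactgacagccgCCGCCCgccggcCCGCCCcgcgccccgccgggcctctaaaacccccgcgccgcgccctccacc
LAMB2: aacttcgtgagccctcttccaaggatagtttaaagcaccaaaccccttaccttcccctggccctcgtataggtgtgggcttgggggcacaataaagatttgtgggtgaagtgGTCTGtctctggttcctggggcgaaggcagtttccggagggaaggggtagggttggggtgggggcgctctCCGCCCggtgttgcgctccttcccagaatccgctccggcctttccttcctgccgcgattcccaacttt

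The motifs were the E-box CAGGTG, to which ZEB1 and SNAI proteins can bind, the SMAD element CAGAC, the AP-1 site TGANTCA, the GC box GGGCGG, the TATA box TATAAA and the GGA repeat GGAGGA, each read on both strands. SPARC held 5 matches to GGAGGA, the last 2 of them overlapping, at 177 to 97 bases before the start, and none to the other motifs. At least 1 such match was found in 31.2% of 27305 RefSeq promoter windows of the same length. MFAP2, with the lowest GC content of the 5 regions (46.8%), held the only E-box, 214 bases before the start, and AP-1 sites that began 145 and 60 bases before it, motifs present in 17.5% and 6.6% of all windows. NID1 and FBN2 were GC-rich at 76.4% and 72.8%, with 1 and 3 GC boxes, and NID1 held a GGA repeat. LAMB2, of the lower genes, held 1 SMAD element and 1 GC box, motifs found in 37.8% and 42.3% of all windows. No motif was shared by all of the 4 regions of higher genes. Over the list, 33 of 43 genes had a window, and an E-box was in 1 of 6 higher, 1 of 7 lower and 2 of 12 genes within 1.5-fold. A match is a run of letters only, and no binding was measured.

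Among the laminin chains, 6 of 8 measured were above background, with 1 higher, 1 lower and 4 within 1.5-fold. For this group and those that follow, the shares over all genes were 7.99% higher and 11.2% lower. Counts in groups this small say little beside those shares. LAMB3, a chain of laminin-332 that anchors epithelia through hemidesmosomes, read 10589 in HCC4006ER and 10949 in HCC4006, a log2 fold of -0.05. LAMA5, the alpha chain of laminin-511 in adult epithelial basement membranes, read 2876 in HCC4006ER and 2853 in HCC4006, a log2 fold of 0.01. Both values were smaller in size than the 0.27 SD between probe sets of other genes, but each of these genes had 1 probe set, so their own spread is unknown. LAMB1 read 1611 in HCC4006ER and 1282 in HCC4006 (log2 fold 0.33), with 0.04 in its other probe set. LAMC1, the gamma chain shared by most laminins, was 1.57-fold higher at 5927 in HCC4006ER against 3775 in HCC4006, but its other probe set read 2224 in HCC4006ER and 2244 in HCC4006, and the call was lost when probe sets were averaged (log2 fold 0.32). Among the laminin genes measured, LAMB2 was the only one past 2-fold. LAMA4, a chain of vascular and muscle laminins, lay at the background level (95.5 in HCC4006ER and 105 in HCC4006). LAMA1, typical of the early embryo, was under background on both arrays (36.7 in HCC4006ER and 19.1 in HCC4006). LAMA2, the alpha chain of muscle laminin, was also under background in its brightest probe set (88.5 in HCC4006ER and 88.3 in HCC4006), while 2 of its other probe sets passed the level in HCC4006ER only, at 125 and 105, and were at least 1.30-fold and 1.09-fold higher.

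Of 5 proteins that link laminins to the rest of the basement membrane, 1 was higher, 2 were lower and 2 lay within 1.5-fold. The paralogs NID1 and NID2 lay on opposite sides, with NID2 at 121 in HCC4006ER and 191 in HCC4006, 1.58-fold lower. NID2 lay within 1.5-fold with median scaling and with a 99th percentile background level. NPNT, which encodes nephronectin, a ligand of an integrin of developing kidney, was under background at 59.4 in HCC4006ER and read 142 in HCC4006, at least 1.55-fold lower. That call was lost under both other scalings and when its probe set under background on both arrays was averaged in. HSPG2, the heparan sulfate proteoglycan perlecan, read 1460 in HCC4006ER and 1218 in HCC4006 (log2 fold 0.26). AGRN, the proteoglycan agrin, read 1432 in HCC4006ER and 1504 in HCC4006 (log2 fold -0.07). HSPG2 had a log2 fold of 0.40 with equal array medians, and a dimmer probe set of AGRN, under background in HCC4006ER, gave -0.54.

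Fibronectin, the fibrillins and elastic fibre proteins held the most higher genes and also the most genes above background. Of these 8, 3 were higher, 1 was lower and 4 lay within 1.5-fold, with a median log2 fold of 0.36. Over all genes 7.99% were higher and 11.2% lower, and with so few genes the counts say little about the group. FN1, which encodes fibronectin, read 1900 in HCC4006ER and 1143 in HCC4006, 1.66-fold higher. All 5 of its probe sets above background were past 1.5-fold, and the probe set used gave the smallest of their log2 folds, which ran to 1.04. FBN1, the main fibrillin of adult tissue, did not follow FBN2, at 868 in HCC4006ER and 772 in HCC4006 (log2 fold 0.17). The FBN2 call rested on 1 probe set and was lost when its dim probe sets were averaged in (log2 fold 0.32). EMILIN2, an elastin-interface protein, lay just under the threshold at 1.46-fold higher (438 in HCC4006ER and 301 in HCC4006) and passed it with median scaling.

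The fibulins above background all had negative log2 folds. FBLN1 read 213 in HCC4006ER and 300 in HCC4006, 1.41-fold lower, and its 4 probe sets above background all had negative log2 folds, from -0.45 to -1.13. EFEMP1, also called fibulin-3, read 7584 in HCC4006ER and 9156 in HCC4006 (log2 fold -0.27), with all 3 probe sets negative. EFEMP2, fibulin-4, which is needed for elastic fibre crosslinking, was under background at 66.6 in HCC4006ER and read 157 in HCC4006, at least 1.71-fold lower. That call was lost when its probe set under background on both arrays was averaged in and with the 99th percentile background level. FBLN2, FBLN5, MFAP5 and EMILIN1 were under background on both arrays, with signals of 11.6 to 26.8 in HCC4006ER and 6.23 to 42.6 in HCC4006.

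Among 11 matricellular proteins, SPARC stood alone on the higher side, with 2 lower and 4 within 1.5-fold. THBS1, which encodes thrombospondin-1, an adhesion protein that also activates latent TGF-β, read 5556 in HCC4006ER and 8707 in HCC4006, 1.57-fold lower. Its 5 probe sets above background were all lower, with log2 folds from -0.17 to -0.87, and 3 of them were past 1.5-fold. The call was lost with median scaling and when its probe sets under background on both arrays were averaged in. THBS3, a relative from another thrombospondin subgroup, read 114 in HCC4006ER and 227 in HCC4006, 1.99-fold lower, and lay within 1.5-fold with the 99th percentile background level. THBS2 read 94.8 in HCC4006ER, barely above background, and 3.82 in HCC4006, far under it, so no fold can be given and it was counted within 1.5-fold. TNC, tenascin C of wounds and tumour stroma, read 3004 in HCC4006ER and 2834 in HCC4006 (log2 fold 0.08). SPOCK1, a relative of SPARC also called testican-1, read 3469 in HCC4006ER and 3840 in HCC4006 (log2 fold -0.15). TGFBI, named for its induction by TGF-β, was bright on both arrays at 13389 in HCC4006ER and 16615 in HCC4006 (log2 fold -0.31). The further SPARC relatives SMOC1 and SMOC2 were under background on both arrays. POSTN (periostin) and SPP1 (osteopontin) were too, POSTN at 13.0 in HCC4006ER and 23.4 in HCC4006 and SPP1 at 29.4 in HCC4006ER and 20.3 in HCC4006.

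**Figure D2:**
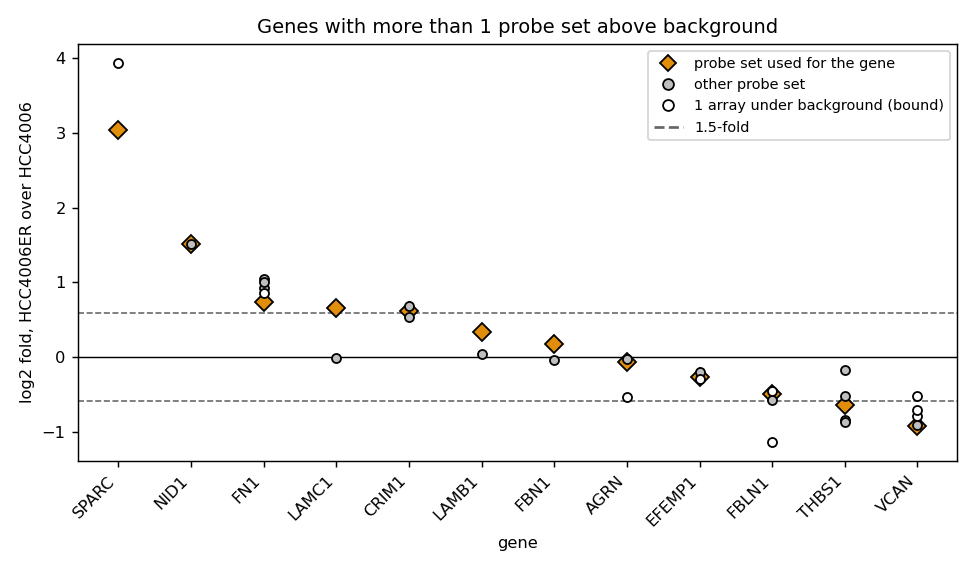
Log2 fold of HCC4006ER over HCC4006 for each probe set above background of the 12 genes, among the 30 matrix genes above background, that had more than 1 such probe set. Diamonds mark the probe set used for the gene, white circles a fold against the background level, and dashed lines 1.5-fold. All 5 points of FN1 lie above the upper line and all 5 points of THBS1 and of VCAN lie below 0, while the 2 points of LAMC1 lie at 0.65 and -0.01.

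Of 4 matrix proteoglycans only VCAN was above background. VCAN, the large hyaluronan-binding proteoglycan versican, read 308 in HCC4006ER and 587 in HCC4006, 1.90-fold lower, and all 5 of its probe sets above background were lower, 4 of them past 1.5-fold. The small leucine-rich proteoglycans BGN, DCN and LUM, abundant products of fibroblasts, were under background on both arrays in each of their probe sets. Of the probe sets that stood for them, that of BGN read 37.0 in HCC4006ER and 59.1 in HCC4006, that of DCN 88.9 in HCC4006ER and 86.9 in HCC4006, and that of LUM 19.6 in HCC4006ER and 25.4 in HCC4006. Among the remaining genes, CRIM1, a transmembrane protein that binds BMPs, read 2644 in HCC4006ER and 1721 in HCC4006, 1.54-fold higher, with 1.60-fold and 1.45-fold in its other 2 probe sets. ECM1, a glycoprotein of skin basement membrane, read 158 in HCC4006ER and 232 in HCC4006, 1.47-fold lower and just short of the threshold.

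Of the 15 genes past 1.5-fold, 7 had several probe sets above background, and in 6 of these all had the same direction, LAMC1 being the exception. The other 8 rested on 1 probe set above background. The 13 genes under background on both arrays had signals of 11.6 to 88.9 in HCC4006ER and 6.23 to 91.3 in HCC4006.

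**Figure D3:**
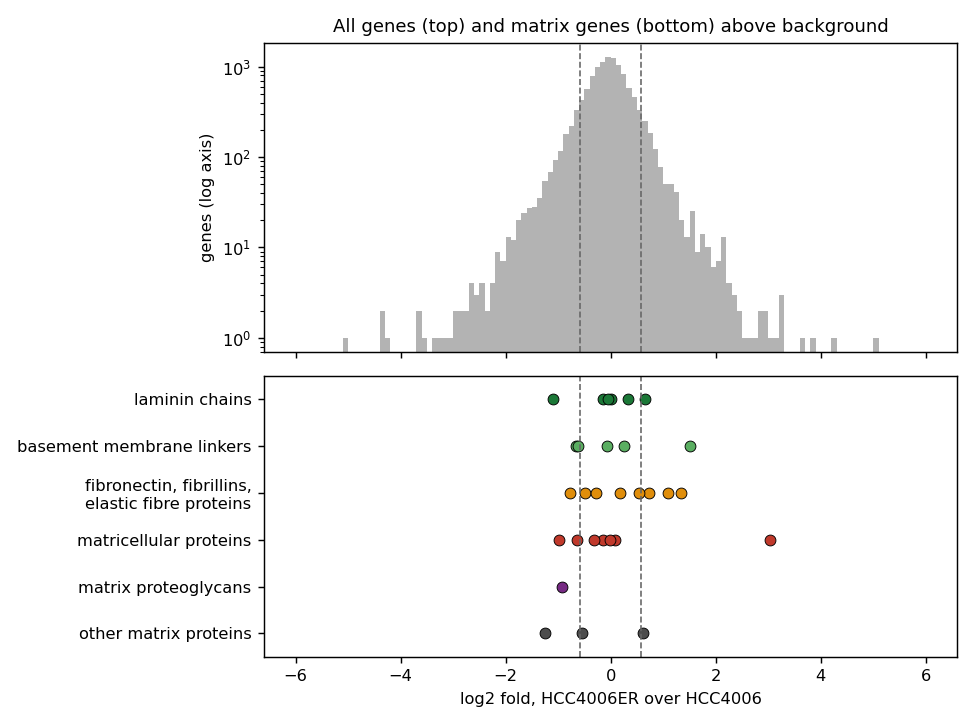
Log2 fold of HCC4006ER over HCC4006 for all 11896 genes above background (top, number of genes in bins of log2 fold, log axis) and for the 30 matrix genes above background by role (bottom, 1 point per gene). Dashed lines mark 1.5-fold; 7 matrix genes lie to the right of the lines, 8 to the left, and SPARC lies at 3.03.

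Genes that receive, crosslink or resemble these proteins were read the same way. For comparison, 7.99% of all genes were higher and 11.2% lower past 1.5-fold, and with lists this short a difference of 1 or 2 genes from those shares says little. No laminin receptor of 5 above background was past 1.5-fold. The integrin chains ITGA6 and ITGA3 had log2 folds of -0.41 and -0.36, ITGB1 and ITGB4 of 0.18 and 0.09, and BCAM of -0.09. Of 6 receptors for fibronectin and other RGD proteins, ITGAV was 1.69-fold higher and ITGB8 1.59-fold lower. CD44, a receptor for hyaluronan and osteopontin, lay within 1.5-fold in the probe set used (log2 fold -0.32), but all 12 of its probe sets above background were negative, 6 of them past 1.5-fold and the lowest at -1.60. The integrin chain ITGB5 (log2 fold -0.46) was negative in all 4 of its probe sets, 2 of them past 1.5-fold. Among 11 genes for matrix crosslinking and latent TGF-β binding, 1 was higher and 3 were lower. LOXL4, a lysyl oxidase relative, was at least 2.37-fold higher, at 228 in HCC4006ER and 60.4 in HCC4006. TGM2, the transglutaminase that crosslinks fibronectin, was 2.25-fold lower at 3282 in HCC4006ER and 7397 in HCC4006. LOX, the lysyl oxidase of collagen and elastin, was 1.71-fold lower at 637 in HCC4006ER and 1088 in HCC4006, and LTBP1, which stores latent TGF-β on fibrillin fibres, was 2.01-fold lower at 313 in HCC4006ER and 629 in HCC4006. All 3 probe sets of TGM2, all 3 of LOX and both of LTBP1 above background were lower past 1.5-fold. Of 33 further matrix genes measured, 24 were under background, SPOCK2, testican-2, was 2.26-fold higher (1136 in HCC4006ER and 503 in HCC4006), and SRPX was 3.06-fold lower (310 in HCC4006ER and 949 in HCC4006).

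**Figure D4:**
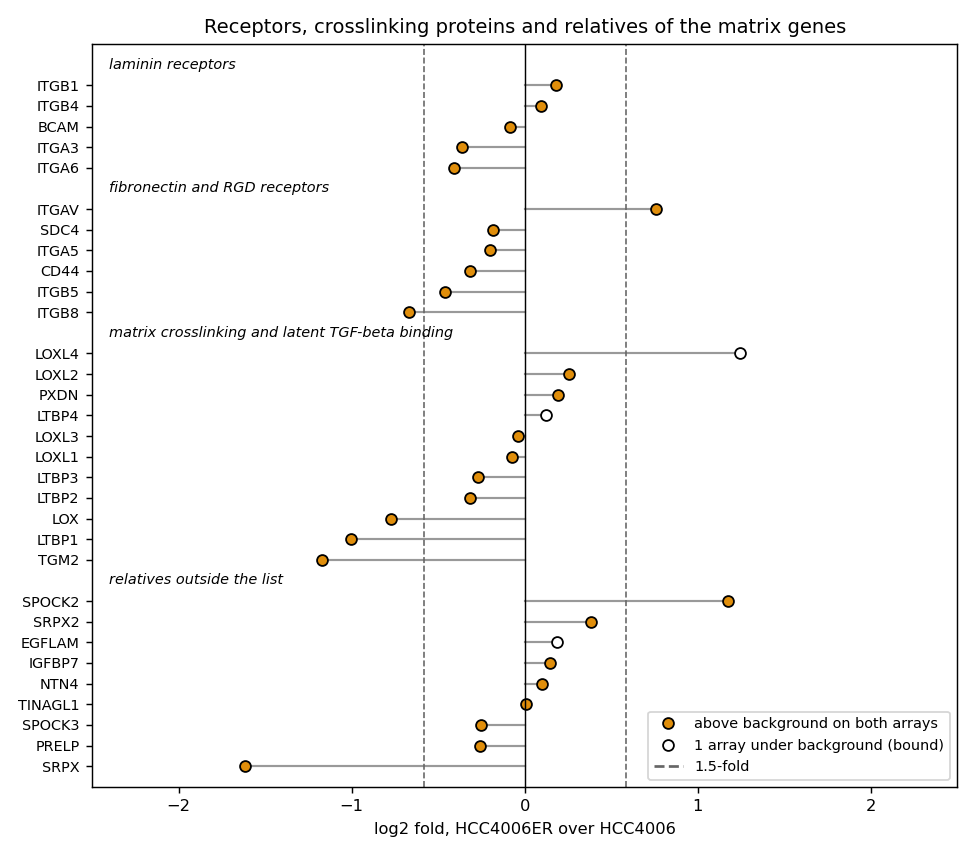
Log2 fold of HCC4006ER over HCC4006 for receptors, crosslinking proteins and relatives of the matrix genes that were above background on at least 1 array, sorted within each list. White circles are folds against the background level and dashed lines mark 1.5-fold. All 5 laminin receptors lie between the lines, and LOXL4 (1.24) and SRPX (-1.61) are the highest and lowest points.

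Several of these matrix genes are also made by stromal cells, and markers of such cells were therefore read. Of 15 fibroblast markers, 1 was above background in HCC4006ER and 2 in HCC4006, and their signals summed to 1232 in HCC4006ER (0.495 to 965) and 1074 in HCC4006 (1.02 to 591). The collagen gene COL1A1 was above background on both arrays at 965 in HCC4006ER and 591 in HCC4006, while its other 2 probe sets above background had negative log2 folds, the lower at -0.18. THY1 was above background in HCC4006 only (40.1 in HCC4006ER and 125 in HCC4006). COL3A1, COL1A2, PDGFRA, PDGFRB and FAP were under background on both arrays. Of 7 smooth muscle and pericyte markers, 4 were above background in HCC4006ER and 3 in HCC4006, and their signals summed to 3377 in HCC4006ER and 1465 in HCC4006. Most of that difference was MCAM, an adhesion molecule, at 1956 in HCC4006ER and 347 in HCC4006, while MYH11 and DES were under background on both arrays. Endothelial markers summed to 323 in HCC4006ER and 365 in HCC4006, with 1 of 8 above background on each array, PECAM1. Leukocyte markers summed to 537 in HCC4006ER and 713 in HCC4006, with 1 of 8 above background in HCC4006ER and 2 in HCC4006. The part of these markers in the differences of the matrix genes was not tested.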

How the data were processed

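Pooled RNA of HCC4006ER and of HCC4006 cells was profiled on 1 HG-U133 array per line. The deposited table gives a signal intensity for 54675 probe sets, made by the authors with MAS5 (GCOS 1.4 in the submitters' processing notes), on a linear scale, without detection calls and with a 2% trimmed mean of 500 on both arrays. Array medians were 57.7 for HCC4006ER and 63.4 for HCC4006. Precision is limited by the 2 arrays.

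Gene names came from the platform annotation. Of all probe sets, 41097 had 1 symbol and were used, 1801 had several and 11777 were unlisted. The symbols of all 43 measured genes matched RefSeq by gene identifier. The 1.5-fold threshold follows the study's methods and served as a size only. All measured list genes were accounted for, and up to 4 genes past 1.5-fold were named from each list of receptors, crosslinking proteins and relatives. The laminin receptors above background were named as well. Genes and lists were chosen with earlier results of these data known. Promoter windows and motifs were chosen after the folds were seen, and so were CD44 and ITGB5 for their probe sets and ZEB1, VIM and CDH2 as a check of the label. The windows came from RefSeq (GRCh38.p14). The calculation was tested on simulated data with known folds in genes well above background, the same in every probe set of a gene. The treatment of dim signals and disagreement between probe sets were not tested in that way. Alternatives covered scaling, choice of probe set, treatment of dim signals, background level, filter and threshold. Python 3.11.15 with numpy 2.4.6, pandas 2.3.3 and matplotlib 3.10.9 was used.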

Additional observations from a re-analysis of the deposited data

How the results depend on the processing

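The count of 7 higher genes stayed between 5 and 9 under 9 alternatives and was 4 at the 2-fold threshold. The count of 8 lower genes was 5 with equal array medians, 5 with log2 folds averaged over a gene's probe sets, 4 without the probe sets whose names mark shared or similar transcripts (18 genes left), 4 with the 99th percentile as background level, 13 with no filter on low signals and 2 at the 2-fold threshold. It was 7 to 9 under the other 4 alternatives. The average over probe sets took in those under background on both arrays, which carry only the ratio of the background levels. Apart from the 2-fold threshold, the share of all genes ran from 5.24% to 12.4% higher and from 7.4% to 14.5% lower. At the 2-fold threshold these shares were 2.38% and 3.56%. The number of list genes ran from 18 to 43, so the counts are not directly comparable. With no filter on the list, the shares over all genes still left out genes under background. The median log2 fold ran from -0.059 to 0.077 and moved by less than the 0.27 SD between probe sets. Of the 15 genes past 1.5-fold, 8 stayed past it in each of the 8 alternatives for single genes that gave a value, namely SPARC, NID1, MFAP2, FN1, CRIM1, LAMB2, VCAN and MATN2. LAMC1, NID2, NPNT, FBN2, EFEMP2, THBS1 and THBS3 did not. Not every alternative could change a call. The 8 kept genes were above background on both arrays, so measured ratios and signals raised to the array median left their values unchanged. MFAP2 and LAMB2 had 1 probe set each, so averaging could not change them. Taking the largest absolute fold cannot make a fold smaller. EFEMP2 turned to a log2 fold of 0.057 with the 99th percentile, where the level of the HCC4006ER array exceeded its HCC4006 signal. Without a raised dim signal THBS2 had a log2 fold of 4.63. A signal near the background levels gives only a bound, and no replicate was left out because each cell line had 1 array. No paired analysis was possible because the arrays had no replicates.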
